A study of Mus musculus with 21 samples.

Results

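The genes described here encode the receptors through which serotonin, dopamine, noradrenaline and adrenaline, acetylcholine (the muscarinic class), histamine and the opioid peptides act on neurons. They were taken by symbol: every gene of the table named as a serotonin receptor of classes 1 to 7 (Htr), a dopamine receptor (Drd1 to Drd5), an adrenergic receptor (Adra and Adrb), a muscarinic receptor (Chrm1 to Chrm5), a histamine receptor (Hrh1 to Hrh4) or an opioid receptor (Oprk1, Oprd1, Oprm1, Oprl1). This gave 41 of 24984 genes: 14 for serotonin, 5 for dopamine, 9 adrenergic, 5 muscarinic, 4 for histamine and 4 opioid. Of these, 39 passed the filter on low counts and were tested among 16959 genes. Drd4 and Drd5, which had at most 6 and 5 counts in any library, did not pass and were not tested.

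Most of these receptors sit in the membrane and signal through G proteins. Gs-coupled receptors raise cAMP through adenylyl cyclase, Gi/o-coupled receptors lower it and open potassium channels, and Gq-coupled receptors act through phospholipase C and calcium release; Htr3a and Htr3b instead form an ion channel. In cortex the transmitters arrive mostly along axons from the brainstem, basal forebrain and hypothalamus and set the gain and excitability of local neurons, while opioid peptides are also made by cortical interneurons.

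The assay was BrU-seq, in which cells build bromouridine into RNA while it is made and the labelled RNA is pulled out and sequenced. Primary cortical cultures from CD1 mice, of mixed sex, were used at day 17 in vitro. Pretreatment lasted 30 min, either with 25 µM MM401 or with its solvent DMSO. MM401 is a peptidomimetic that blocks the binding of the histone methyltransferase MLL1 to WDR5. Cultures then spent 1 h or 4 h in water or in 40 µM bicuculline, a blocker of GABA-A receptors that raises network firing. In all groups the last 30 min were in 2 mM bromouridine. The groups were DMSO with water at 4 h, DMSO with bicuculline at 1 h and at 4 h, and MM401 with water or bicuculline at 1 h and at 4 h. Each had 3 libraries from biological replicates, except MM401 with water at 4 h, of which replicate 3 held 316741 counts and was left out, so that this group had 2. The DMSO counterpart of the 1 h water group was not analysed here, so both DMSO responses were taken against water at 4 h and share those 3 libraries; at 1 h, time in culture after the addition and bicuculline cannot be told apart in DMSO.

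The other 20 libraries held 49886348 to 87939384 counts over whole gene spans, introns included, of which the 41 receptor genes took 0.0819% to 0.110%. Marker genes of cortical glutamatergic neurons were detected in all groups, 7 of 7 tested and none at 0 in every library, with a summed level of 497 to 632 CPM, counts per 1000000 of the TMM-scaled library total, in DMSO water. So were those of GABAergic interneurons (8 of 8, 1290 to 1648 CPM) and astrocytes (7 of 7, 1126 to 1604 CPM). Markers of the cells that release monoamines or acetylcholine were near the floor: 6 of 7 monoaminergic and 2 of 3 cholinergic markers were tested, with sums of 1.51 to 1.74 and 2.14 to 2.21 CPM in DMSO water, and Slc18a3, the vesicular acetylcholine transporter, was at 0 in every library. Microglial markers (5 of 6 tested) summed to 26.03 to 30.1 CPM and vascular markers (5 of 6) to 9.88 to 9.93 CPM. The cultures are a mixture, and fewer cells of a type and less RNA per cell cannot be told apart in any value below.

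The start sites of the receptor genes that moved are shown first, so that the sequence stands beside the values. RefSeq windows of 250 bases upstream of a start (build GRCm38.p6) were matched by symbol for 31 of the 41 genes, and 4 motifs bound by activity-regulated factors were searched on both strands: the cAMP response element TGACGTCA, its half-site TGACG, the AP-1 site TGANTCA and the EGR site GCGTGGGCG. The first contains the half-site. The 31 genes had 43 windows, and all 27025 genes with a window of this length had 32851. A gene was counted when at least 1 of its windows held the motif. The full element was in 0 of the 31 genes and in 1.77% of all genes, and the half-site was in 3 and in 19.8% of all genes. The AP-1 site was in 4 and in 7.82% of all genes, and the EGR site in 1 and in 0.622% of all genes. As described below, 7 receptor genes were called higher and 8 lower in all 4 bicuculline comparisons. Of those called higher, 6 had a window and 3 of these held a motif (Adra1b, Adra2a, Adrb1), and of those called lower, 7 had a window and 0 held a motif; any of the motifs was in 7 of the 31 genes and in 26.7% of all genes. In place of TMM scaling, plain library totals left Adra1a, Chrm2 and Htr2a higher in all 4. A fit of all 21 libraries left these and Chrm5, and DESeq2 left the same 7. Adra1b, Adra2a and Adrb1 were in neither of the smaller sets, so the split in motifs depends on the setting. The 30 bases around the AP-1 match of Adra1b and the half-site of Adra2a are given here, with the motif in capitals. They are matches among the 7 genes called higher on the TMM scale with 20 libraries.
Adra1b (chr11:43901417-43901446, minus strand): gtggctttgggTGAGTCAtttttacctctc
Adra2a (chr19:54045178-54045207, plus strand): ccacgtgggggcTGACGccggctgctcggc

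The third, the half-site of Adrb1, is shown in its full window, beside those of a riser without a motif (Htr2a) and a faller (Oprd1). Of the genes called in all 4 comparisons, 3 risers and 2 fallers had a window wholly upstream of the RefSeq gene, and these are 3 of those 5. Capitals mark the half-site, 90 bases before the RefSeq start of Adrb1, which lies 254 bases before the start of its counted span. The RefSeq start of Adra2a lay 78 bases inside its counted span, which also held its half-site.
Adrb1 (chr19:56721867-56722116, plus strand): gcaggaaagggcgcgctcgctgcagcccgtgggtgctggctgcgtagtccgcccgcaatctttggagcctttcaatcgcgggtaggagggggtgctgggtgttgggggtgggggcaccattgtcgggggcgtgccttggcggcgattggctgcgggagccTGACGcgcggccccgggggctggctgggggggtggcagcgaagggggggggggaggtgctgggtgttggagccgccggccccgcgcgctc
Htr2a (chr14:74640624-74640873, plus strand): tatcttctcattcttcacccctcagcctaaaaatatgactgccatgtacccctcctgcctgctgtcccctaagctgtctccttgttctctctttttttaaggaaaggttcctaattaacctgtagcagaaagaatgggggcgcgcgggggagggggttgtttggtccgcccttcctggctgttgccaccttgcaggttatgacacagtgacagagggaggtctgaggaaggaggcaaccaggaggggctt
Oprd1 (chr4:132144487-132144736, minus strand): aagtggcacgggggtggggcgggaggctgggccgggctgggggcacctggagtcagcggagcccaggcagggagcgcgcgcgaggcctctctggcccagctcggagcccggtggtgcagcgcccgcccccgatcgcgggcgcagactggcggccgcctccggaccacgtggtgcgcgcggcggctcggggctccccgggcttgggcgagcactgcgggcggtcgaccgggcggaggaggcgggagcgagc
Guanine and cytosine made up 74.0% of the Adrb1 window, 52.8% of the Htr2a window and 80.0% of the Oprd1 window, against a median of 52.4% over all windows (quartiles 45.2% and 61.2%). A match is a description of the letters in these windows only.

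Levels between genes were compared as RPKM, CPM divided by the gene span in kb, averaged over the 20 libraries. Adrb1, the cortical beta-1 adrenergic receptor (chr19:56722371-56724862 in the table's mm10 coordinates), was highest at 3.06 RPKM over water and bicuculline libraries together, at the 93.7th percentile of tested genes. Chrm1, the main postsynaptic muscarinic receptor of pyramidal cells (chr19:8664004-8683602), followed at 2.33, and Drd1, the Gs-coupled dopamine receptor (chr13:54051183-54055658), at 1.72. In all 3 water groups the order of the first pair was turned. In DMSO water Chrm1 was at 2.85 ± 0.377 RPKM and Adrb1 at 2.29 ± 0.353 (SD, n = 3); these overlapped, between 2.49 and 3.24 and between 2.03 and 2.69. In MM401 water Chrm1 was at 2.93 ± 0.0519 at 1 h (SD, n = 3) and 2.69 ± 0.0460 at 4 h (SD, n = 2) and Adrb1 at 2.13 ± 0.165 and 2.06 ± 0.154, without overlap at either time. Below them lay a group of neighbours that were close in mean level: Chrm4 (0.857), Chrm3 (0.789), Htr1b (0.788), Oprl1 (0.722), Htr2a (0.651), Chrm2 (0.650), Adra2a (0.630) and Adra1a (0.621). Drd4, Drd5 and Hrh4 were the genes with a library at 0, and the other 38 had a count in all 20 libraries. With a minimum count of 30 in place of 10 the number of genes kept was 34, without Htr5b, Hrh4, Adra2b, Adrb3 and Htr3b.

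**Figure D1:**
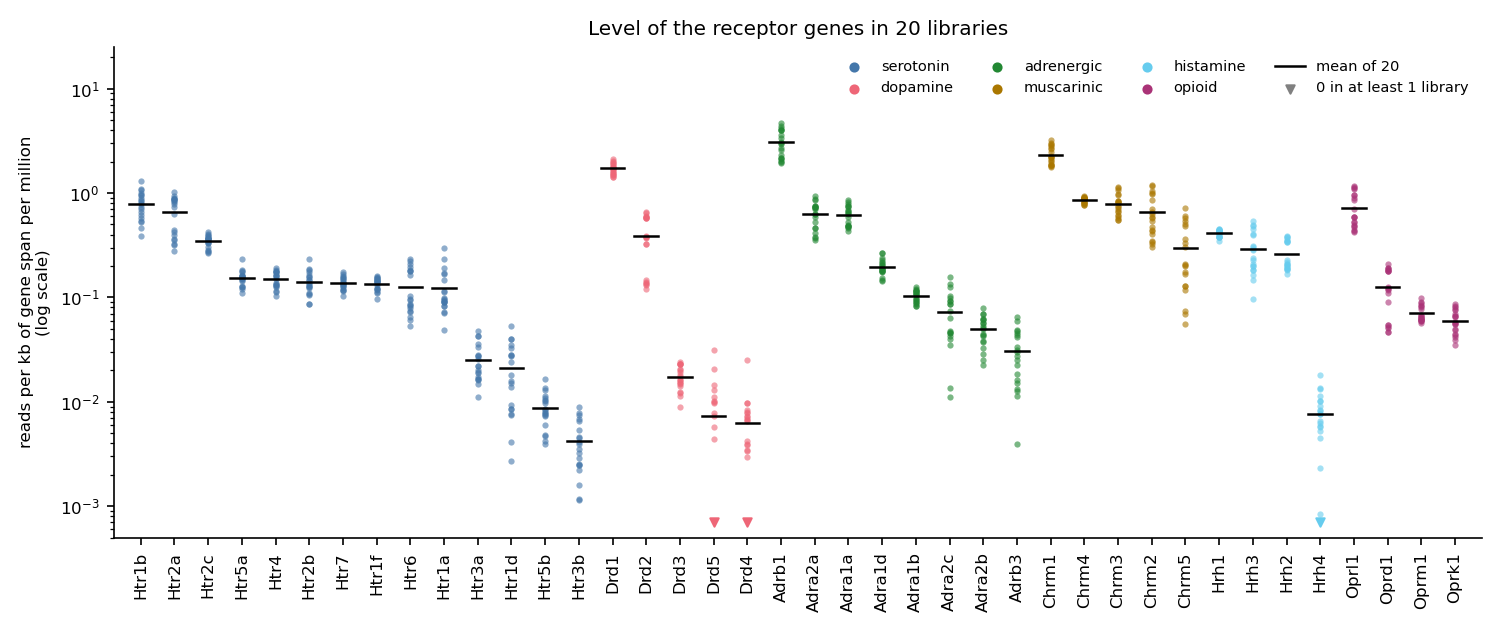
Level of the receptor genes reported here in RPKM on a log axis, in each of 20 libraries (points, coloured by transmitter system) with the mean of the 20 (bar); a triangle at the foot marks a gene with 0 counts in at least 1 library. Adrb1, Chrm1 and Drd1 have the highest means, at 3.06, 2.33 and 1.72.

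These levels span introns and depend on the gene model. The table's span of Chrm5 is 1.75 kb and that of Htr1b 1.16 kb, while Chrm3 spans 484 kb. The spans of 6 genes overlap another gene, so their counts are uncertain without knowledge of strand: Htr2b (Psmd1), Oprm1 (Ipcef1), Chrm4 (Mdk), Chrm2 (9330158H04Rik, and the microRNA Mir490 on the same strand) and Htr1b (D430036J16Rik) lie opposite another gene, and Htr2c contains microRNA and small nucleolar RNA genes on its own strand.

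Bicuculline moved the receptor genes in both directions, at both times and under both pretreatments. A gene was called when its adjusted p-value from edgeR's quasi-likelihood test was under 0.05. In DMSO, 23 of 39 receptor genes were called at 1 h, 12 higher and 11 lower, where 44.6% of all tested genes were called (20% higher, 24.5% lower). At 4 h in DMSO 26 were called, 13 higher and 13 lower, against 49.2% of all genes (23.7% higher, 25.5% lower). Under MM401, 26 were called at 1 h, 13 in each direction, against 39.9% of all genes (18.1% higher, 21.8% lower), and 23 at 4 h, 11 higher and 12 lower, against 44.6% (23% higher, 21.7% lower). The median absolute log2 fold change of the receptor genes was 0.59, 0.66, 0.57 and 0.62 in these 4 comparisons and that of all genes 0.27, 0.30, 0.25 and 0.31. Counting error enlarges an absolute change in sparse genes such as Hrh4, Adrb3 and Htr3b (median 6.5, 6.5 and 8 counts a library). Neither set of medians was adjusted for it. The signed median of the receptor genes was 0.05, -0.07, -0.10 and -0.17, and that of all genes -0.04, -0.02, -0.00 and 0.02.

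The split between higher and lower depended on the scaling. With plain library totals in place of edgeR's TMM factors, the median of all genes moved by -0.19, -0.28, -0.21 and -0.07 on the log2 scale, and the receptor genes were called 7 higher and 14 lower, 8 and 16, 8 and 17, and 10 and 13. All changes below are relative to the TMM scale, on which the median gene lies near 0. No called receptor gene changed sign under any alternative.

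Over the 4 comparisons 34 genes were called at least once and 15 in all 4. Higher in all 4 were Adra1a, Adra1b, Adra2a, Adrb1, Chrm2, Chrm5 and Htr2a. Lower in all 4 were Chrm1, Drd2, Hrh2, Hrh3, Htr1d, Htr6, Oprd1 and Oprl1. Of these 15, Adra1b, Adra2a, Adrb1, Chrm5, Hrh3 and Htr1d lost a call in at least 1 fit without a single library, given with the last comparisons. Called in none were 5: Chrm4, Adra2b, Htr5a, Hrh1 and Htr3b. In all, 16 genes were called higher at least once and never lower, 17 lower and never higher, and 1, Oprm1, in both directions. Under plain library totals 3 genes were higher in all 4 (Adra1a, Chrm2, Htr2a) and 9 lower. In fits of only the groups compared there were 4 higher (without Adra2a, Adrb1 and Chrm5) and 7 lower (without Hrh3), and with all 21 libraries 4 higher (Adra1a, Chrm2, Chrm5, Htr2a) and 6 lower. Under DESeq2 they were the same 7 and 8 as above.

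**Figure D2:**
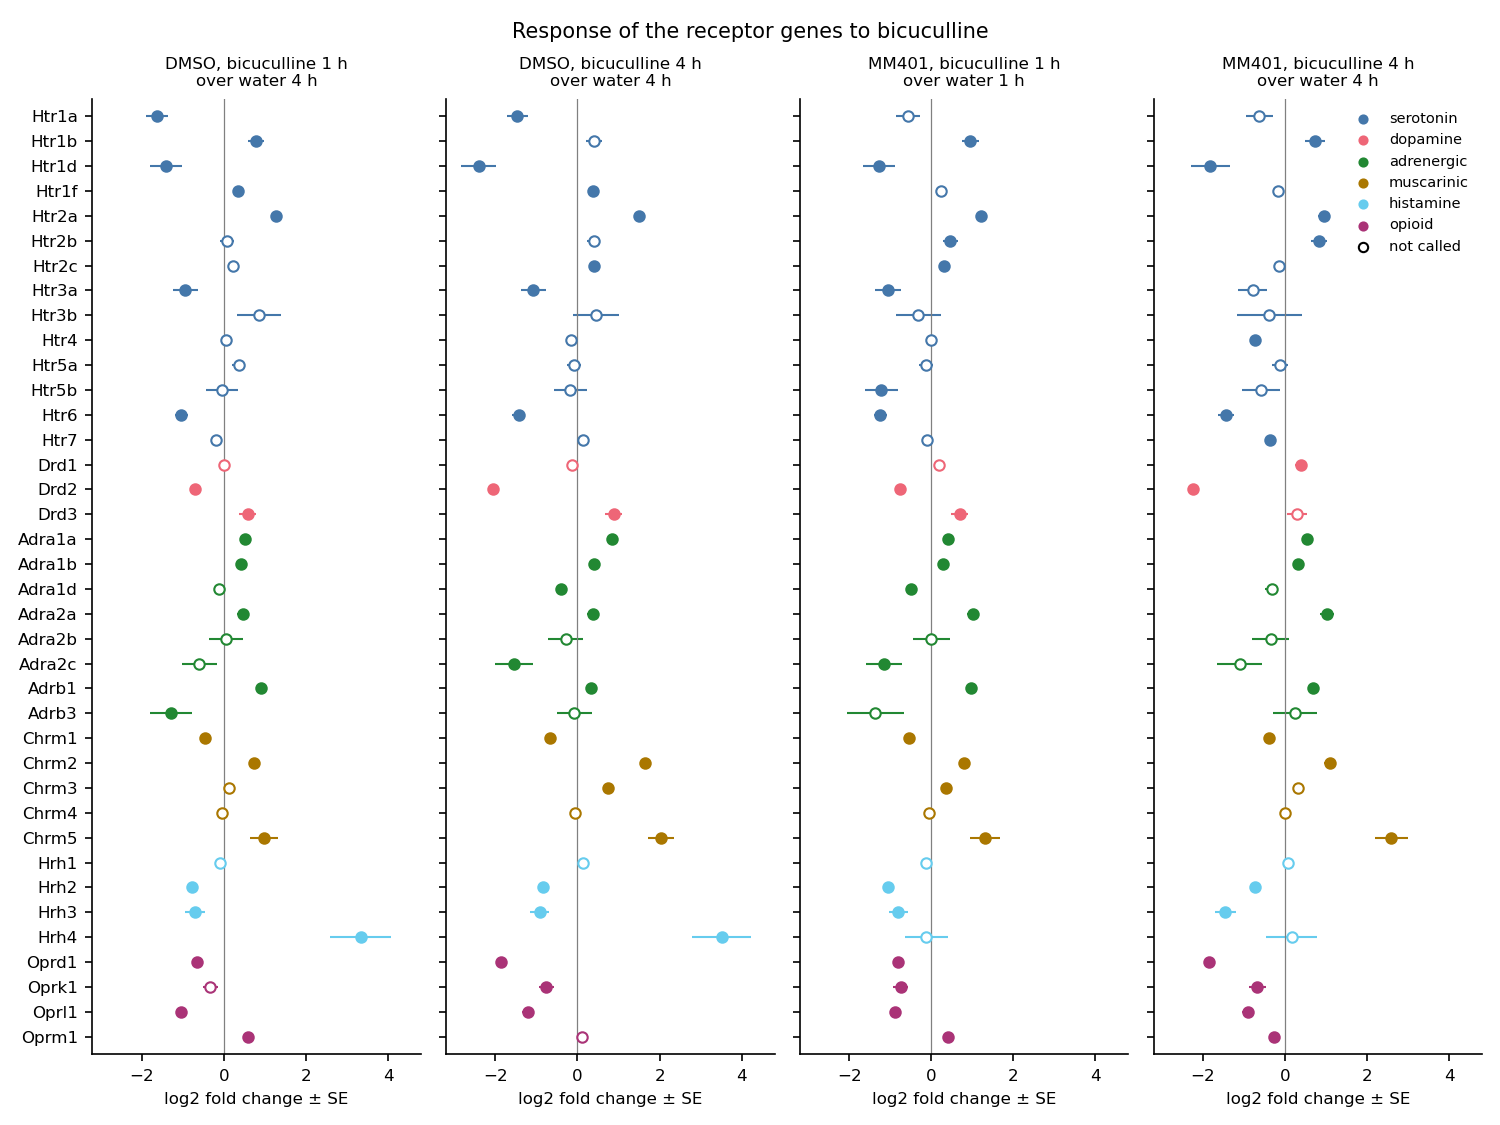
Log2 fold change with its SE (whiskers) of the tested receptor genes reported here in the 4 bicuculline comparisons, ordered and coloured by transmitter system; filled points were called at an adjusted p under 0.05 (edgeR). Drd2 and Oprd1 lie further left at 4 h than at 1 h under both pretreatments, and Hrh4 is high in the DMSO panels only, where 3 counts in all stand in the water group.

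Serotonin receptors divided by subtype. Of the 14 genes, 3 were called higher and 4 lower at 1 h in DMSO, 3 and 4 at 4 h, and under MM401 4 and 4 at 1 h and 3 and 4 at 4 h, shares near those of all genes called except at 1 h under MM401 (8 of 14 against 39.9%). With plain library totals the counts were 2 and 5, 1 and 5, 2 and 7, and 3 and 5. Htr2a encodes the Gq-coupled receptor of cortical pyramidal cells at which serotonergic psychedelics act. It was at 26.3, 20.8 and 18.3 CPM in DMSO water, 48.8, 51.5 and 57.9 CPM after 1 h of bicuculline and 67.4, 57.8 and 58.6 CPM after 4 h. With MM401, Htr2a was at 23.7, 23.3 and 21.3 CPM in water at 1 h, 55.3, 61.3 and 41.3 CPM in bicuculline at 1 h, 28.1 and 29.5 CPM in water at 4 h and 55.9, 57.98 and 53.9 CPM in bicuculline at 4 h. Every bicuculline library was above every water library of either pretreatment. The log2 fold changes in the order of the 4 comparisons (DMSO 1 h, DMSO 4 h, MM401 1 h, MM401 4 h) were 1.28, 1.49, 1.21 and 0.96, with SE of 0.13 to 0.15 and adjusted p of at most 4.20e-05 (edgeR).

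Htr6, a Gs-coupled receptor, was at 2.39, 2.78 and 2.42 CPM in DMSO water, 1.38, 1.25 and 1.06 CPM after 1 h of bicuculline and 0.707, 0.966 and 1.11 CPM after 4 h. With MM401, Htr6 was at 2.44, 2.97 and 3.11 CPM in water at 1 h, 1.14, 1.17 and 1.30 CPM in bicuculline at 1 h, 2.20 and 2.63 CPM in water at 4 h and 0.817, 0.991 and 0.874 CPM in bicuculline at 4 h. Every bicuculline library lay below every water library, and the changes were -1.03, -1.43, -1.24 and -1.44 (SE 0.16 to 0.18). Htr1d, a Gi/o-coupled receptor known from the terminals of serotonergic and trigeminal neurons, was at 1.11, 0.586 and 0.571 CPM in DMSO water, 0.333, 0.156 and 0.374 CPM after 1 h of bicuculline and 0.177, 0.161 and 0.0865 CPM after 4 h. With MM401, Htr1d was at 0.825, 0.682 and 0.827 CPM in water at 1 h, 0.502, 0.317 and 0.180 CPM in bicuculline at 1 h, 0.728 and 0.584 CPM in water at 4 h and 0.288, 0.0561 and 0.196 CPM in bicuculline at 4 h. It stood below its water group in every bicuculline library of each comparison, on few counts (3 to 60 a library), with changes of -1.40, -2.41, -1.28 and -1.82 (SE 0.39 to 0.47).

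Htr1a, the Gi/o-coupled receptor that inhibits pyramidal cells and serotonergic neurons, was at 0.847, 1.04 and 1.33 CPM in DMSO water, 0.406, 0.397 and 0.217 CPM after 1 h of bicuculline and 0.318, 0.424 and 0.420 CPM after 4 h. With MM401, Htr1a was at 0.647, 0.757 and 0.398 CPM in water at 1 h, 0.371, 0.433 and 0.404 CPM in bicuculline at 1 h, 0.503 and 0.739 CPM in water at 4 h and 0.368, 0.318 and 0.512 CPM in bicuculline at 4 h. It fell in DMSO by 1.62 and 1.46 on the log2 scale, where the groups did not overlap; under MM401 the changes of -0.57 and -0.62 were not called, and bicuculline and water libraries overlapped at both times. The DMSO water group was the highest of the 3 water groups. Htr3a, a subunit of the serotonin-gated channel found in a class of interneurons, was at 0.332, 0.504 and 0.505 CPM in DMSO water, 0.304, 0.204 and 0.197 CPM after 1 h of bicuculline and 0.230, 0.190 and 0.222 CPM after 4 h. With MM401, Htr3a was at 0.566, 0.326 and 0.429 CPM in water at 1 h, 0.262, 0.133 and 0.239 CPM in bicuculline at 1 h, 0.329 and 0.395 CPM in water at 4 h and 0.176, 0.262 and 0.196 CPM in bicuculline at 4 h. Its changes were -0.93, -1.08, -1.06 and -0.79 (SE 0.30 to 0.36), the last not called.

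The other serotonin receptors changed less or in fewer comparisons. Htr1b, a presynaptic Gi/o-coupled receptor, was higher at 1 h in DMSO and at both times under MM401 (0.79, 0.40, 0.95 and 0.74, the second not called). On the opposite strand D430036J16Rik, at 8.63 CPM over all libraries, was called higher in all 4 (0.49, 0.62, 0.42 and 0.57), and its part in the counts of Htr1b was not tested. Htr1f, a Gi/o-coupled receptor, rose in DMSO by 0.35 and 0.38, and its 0.23 and -0.17 under MM401 were not called. Htr2c, a Gq-coupled receptor of wide cortical expression, rose by 0.41 at 4 h in DMSO and 0.32 at 1 h under MM401. Htr2b rose under MM401 (0.47 and 0.83). Htr4 and Htr7, both Gs-coupled, fell at 4 h under MM401 (-0.73 and -0.36) and Htr5b at 1 h under MM401 (-1.21, on 4 to 19 counts a library). Htr5a and Htr3b were not called in any of the 4.

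Dopamine receptors differed from one another. Drd2, the Gi/o-coupled receptor that marks the indirect-pathway cells of the striatum and is also made in cortex (chr9:49340402-49408168), fell at 1 h and further at 4 h. It was at 40.7, 39.2 and 39.01 CPM in DMSO water, 22.2, 25.2 and 25.97 CPM after 1 h of bicuculline and 9.39, 9.13 and 10.01 CPM after 4 h. With MM401, Drd2 was at 38.97, 44.9 and 39.5 CPM in water at 1 h, 25.7, 25.4 and 21.9 CPM in bicuculline at 1 h, 39.6 and 43.8 CPM in water at 4 h and 9.44, 8.996 and 8.08 CPM in bicuculline at 4 h. The 3 levels did not overlap within either pretreatment. The log2 fold changes were -0.70 (SE 0.08) and -2.06 (SE 0.08) in DMSO and -0.76 (SE 0.08) and -2.24 (SE 0.09) under MM401, a 4.16-fold and 4.72-fold fall at 4 h (adjusted p 2.46e-14 and 1.12e-13, edgeR).

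Drd1, the Gs-coupled counterpart, had 8.14 ± 0.430 CPM in DMSO water and 8.19 ± 1.22 and 7.48 ± 0.689 CPM after 1 h and 4 h of bicuculline (SD, n = 3), and was called in 1 of the 4, at 4 h under MM401 (0.38, SE 0.13). Drd3, a Gi/o-coupled receptor, rose in 3 comparisons (0.59, 0.88 and 0.70; 0.29 at 4 h under MM401, not called), from 0.741 ± 0.198 to 1.35 ± 0.0885 CPM at 4 h in DMSO. Striatal spiny projection neurons are the cells best known for Drd1 and Drd2, and 9 of 9 markers of theirs were tested. Their summed level was 83.3 to 95.8 CPM in DMSO water, 97.6 to 101 at 1 h and 96.7 to 102 at 4 h of bicuculline; under MM401 it was 81.7 to 82.3 and 77.6 to 81.7 in water and 99.8 to 104 and 96.3 to 101 in bicuculline. At 4 h in DMSO 5 of the 9 were called higher and 3 lower (3 and 3 with plain library totals). Of all genes 23.7% were called higher and 25.5% lower there. Adora2a, the adenosine receptor of the same indirect-pathway cells, fell by 1.09 at 1 h and 2.83 at 4 h in DMSO (log2 scale), and Scn4b, a sodium channel subunit, by 1.61 and 2.31, whereas Tac1, the substance P precursor, rose by 2.04 and 1.32. Their part in the fall of Drd2 was not tested.

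Of the 9 adrenergic receptors, 4 were called higher and 1 lower at 1 h in DMSO, 5 and 2 at 4 h, 4 and 2 at 1 h under MM401, and 5 and 0 at 4 h. Of all genes 20%, 23.7%, 18.1% and 23% were called higher and 24.5%, 25.5%, 21.8% and 21.7% lower, so that the 5 of 9 called at 1 h in DMSO and at 4 h under MM401 lay near the 44.6% of all genes. With plain library totals these counts were 2 and 1, 2 and 2, 3 and 2, and 4 and 0. Adra1a, a Gq-coupled receptor, rose in all 4, by 0.51, 0.85, 0.41 and 0.53 (SE 0.06), from 62.2 ± 3.62 CPM in DMSO water to 88.7 ± 3.75 at 1 h and 112 ± 4.39 at 4 h (SD, n = 3). Adra1b, of the same class, rose by 0.41, 0.41, 0.28 and 0.31 (SE 0.08 to 0.09).

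Adra2a, the Gi/o-coupled receptor through which noradrenaline strengthens prefrontal firing, was at 1.77, 2.01 and 2.26 CPM in DMSO water, 2.75, 2.77 and 2.80 CPM after 1 h of bicuculline and 2.65, 2.82 and 2.38 CPM after 4 h. With MM401, Adra2a was at 1.41, 1.77 and 1.58 CPM in water at 1 h, 2.84, 3.55 and 3.26 CPM in bicuculline at 1 h, 1.33 and 1.44 CPM in water at 4 h and 3.36, 2.38 and 2.77 CPM in bicuculline at 4 h. Bicuculline and water libraries did not overlap in any comparison, and the changes were 0.46, 0.37, 1.02 and 1.03 (SE 0.14 to 0.17). Adra2c, of the same class, was at 0.203, 0.328 and 0.425 CPM in DMSO water, 0.275, 0.144 and 0.236 CPM after 1 h of bicuculline and 0.0354, 0.146 and 0.136 CPM after 4 h. With MM401, Adra2c was at 0.404, 0.297 and 0.505 CPM in water at 1 h, 0.0437, 0.150 and 0.314 CPM in bicuculline at 1 h, 0.277 and 0.292 CPM in water at 4 h and 0.128, 0.112 and 0.151 CPM in bicuculline at 4 h. It had only 2 to 33 counts a library and was called lower at 4 h in DMSO (-1.54, SE 0.47) and 1 h under MM401 (-1.14, SE 0.44); libraries of the second pair overlapped.

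Adrb1, with the highest mean level per length over the 20 libraries, was at 5.05, 5.36 and 6.71 CPM in DMSO water, 11.7, 9.91 and 10.4 CPM after 1 h of bicuculline and 7.29, 7.64 and 6.49 CPM after 4 h. With MM401, Adrb1 was at 4.93, 5.74 and 5.22 CPM in water at 1 h, 9.998, 9.93 and 10.98 CPM in bicuculline at 1 h, 4.87 and 5.42 CPM in water at 4 h and 7.46, 8.36 and 8.91 CPM in bicuculline at 4 h. The 1 h bicuculline libraries were the highest of each pretreatment, and at 4 h in DMSO the lowest bicuculline library was below the highest water library. The changes were 0.90, 0.32, 0.96 and 0.68 (SE 0.11 to 0.13). Adrb3 (1 to 17 counts a library) was called lower at 1 h in DMSO (-1.28, SE 0.51) and Adra1d, a Gq-coupled receptor, lower at 4 h in DMSO (-0.40, SE 0.14) and at 1 h under MM401 (-0.48, SE 0.14).

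Muscarinic receptors split between risers and a faller. Of 5 genes, 2 were called higher and 1 lower at 1 h in DMSO, 3 and 1 at 4 h, and under MM401 3 and 1 at 1 h and 2 and 1 at 4 h; with plain library totals these were 1 and 1, 3 and 2, 2 and 1, and 3 and 1. Of all genes 44.6%, 49.2%, 39.9% and 44.6% were called. On 5 genes the 2 and 1 called at 1 h in DMSO and at 4 h under MM401 lie near these shares. The 3 and 1 called at 4 h in DMSO and at 1 h under MM401 lie above them. Chrm5, the Gq-coupled receptor of dopaminergic neurons and cerebral vessels (chr2:112479071-112480817), was at 0.129, 0.305 and 0.226 CPM in DMSO water, 0.638, 0.361 and 0.355 CPM after 1 h of bicuculline and 1.01, 0.936 and 0.889 CPM after 4 h. With MM401, Chrm5 was at 0.0970, 0.208 and 0.291 CPM in water at 1 h, 0.349, 0.533 and 0.584 CPM in bicuculline at 1 h, 0.121 and 0.223 CPM in water at 4 h and 0.849, 1.25 and 1.05 CPM in bicuculline at 4 h. At 4 h the bicuculline libraries were between 0.849 and 1.25 CPM and no water library of the study was above 0.305 CPM; the counts behind these values were 6 to 72 a library. The changes were 0.98, 2.03, 1.31 and 2.59 (SE 0.32 to 0.41), which at 4 h is 4.09-fold in DMSO and 6.02-fold under MM401. Vascular markers, of which 5 of 6 were tested, summed to 9.88 to 9.93 CPM in DMSO water and 10.6 to 11.9 CPM at 4 h of bicuculline, and their part in the rise was not tested.

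Chrm2, the Gi/o-coupled autoreceptor of cholinergic terminals that is also made by interneurons (chr6:36388083-36524774), was at 60.4, 44.8 and 41.4 CPM in DMSO water, 81.04, 78.99 and 85.1 CPM after 1 h of bicuculline and 138, 162 and 158 CPM after 4 h. With MM401, Chrm2 was at 54.8, 46.8 and 47.8 CPM in water at 1 h, 90.4, 96.6 and 73.7 CPM in bicuculline at 1 h, 58.9 and 64.1 CPM in water at 4 h and 135, 142 and 118 CPM in bicuculline at 4 h. The groups did not overlap in any of the comparisons, and the changes were 0.74, 1.65, 0.80 and 1.09 (SE 0.12 to 0.14). The opposite-strand gene 9330158H04Rik inside this span was also called higher in all 4. Chrm3, a Gq-coupled receptor, rose at 4 h in DMSO by 0.74 (SE 0.12) and at 1 h under MM401 by 0.36 (SE 0.12). Chrm1, the Gq-coupled muscarinic receptor with the highest level per length, fell in all 4 comparisons: its changes were -0.46, -0.66, -0.53 and -0.38 (SE 0.08 to 0.09), from 55.9 ± 7.39 CPM in DMSO water to 40.6 ± 3.42 and 35.3 ± 0.886 CPM (SD, n = 3). Chrm4, Gi/o-coupled, stayed between 5.87 and 7.14 CPM in all 20 libraries, and its changes were -0.05, -0.07, -0.05 and 0.00 (SE 0.09 to 0.10), none called.

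**Figure D3:**
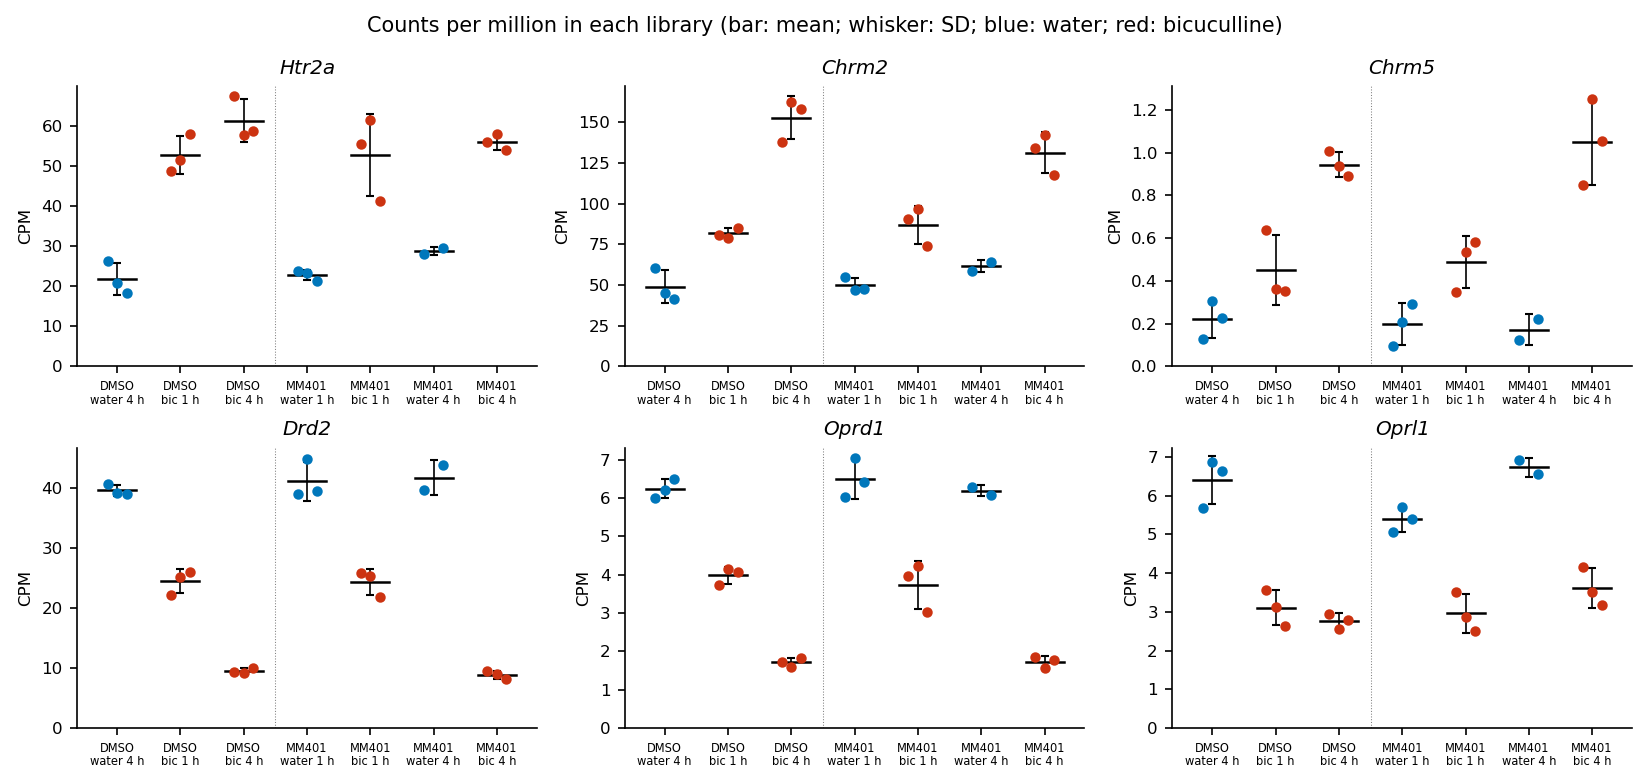
CPM of 6 receptor genes in each of 20 libraries by group (points; blue, water; red, bicuculline), with the mean (bar) and SD (whisker) of 3 libraries, or 2 for MM401 water at 4 h. Htr2a, Chrm2 and Chrm5 are higher in bicuculline and Drd2, Oprd1 and Oprl1 lower; Drd2 falls from 39.6 to 24.5 and 9.51 CPM in DMSO.

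In bicuculline against water, histamine receptors were called lower or not at all, apart from Hrh4. Hrh2, the Gs-coupled receptor, was at 15.4, 15.2 and 14.8 CPM in DMSO water, 9.10, 9.29 and 8.26 CPM after 1 h of bicuculline and 8.77, 8.50 and 8.17 CPM after 4 h. With MM401, Hrh2 was at 16.5, 16.7 and 17.04 CPM in water at 1 h, 9.08, 8.03 and 7.36 CPM in bicuculline at 1 h, 15.98 and 15.1 CPM in water at 4 h and 9.52, 8.64 and 10.1 CPM in bicuculline at 4 h. All bicuculline libraries were between 7.36 and 10.1 CPM and all water libraries between 14.8 and 17.04 CPM, with changes of -0.77, -0.84, -1.04 and -0.72 (SE 0.08 to 0.09). Hrh3, the Gi/o-coupled receptor that limits transmitter release, was at 1.49, 1.42 and 1.94 CPM in DMSO water, 1.45, 0.986 and 0.473 CPM after 1 h of bicuculline and 1.03, 0.732 and 0.815 CPM after 4 h. With MM401, Hrh3 was at 2.41, 2.24 and 1.99 CPM in water at 1 h, 1.53, 1.18 and 1.14 CPM in bicuculline at 1 h, 2.65 and 2.46 CPM in water at 4 h and 0.913, 0.898 and 0.980 CPM in bicuculline at 4 h. Bicuculline replicate 1 at 1 h in DMSO overlapped its water group, while the other 3 comparisons had no overlap; the changes were -0.71, -0.92, -0.80 and -1.45 (SE 0.23 to 0.26).

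Hrh4, a Gi/o-coupled receptor of blood cells, was at 0.0368, 0 and 0.0133 CPM in DMSO water, 0.145, 0.216 and 0.0985 CPM after 1 h of bicuculline and 0.0707, 0.161 and 0.284 CPM after 4 h. With MM401, Hrh4 was at 0.210, 0.134 and 0.0919 CPM in water at 1 h, 0.131, 0.0833 and 0.180 CPM in bicuculline at 1 h, 0.121 and 0.103 CPM in water at 4 h and 0.160, 0.0935 and 0.121 CPM in bicuculline at 4 h. The 3 DMSO water libraries held 3 counts in all against 33 and 38 in bicuculline at 1 h and 4 h, which are ratios of 11.6 (95% exact interval, counting error only, 3.65 to 59.4) and 13.2 (4.195 to 66.95) after scaling for depth. The MM401 water groups overlapped the bicuculline groups, and neither MM401 comparison called it. Hrh1, the Gq-coupled receptor, had 33.5 ± 1.14 CPM in DMSO water and 37.04 ± 1.002 CPM at 4 h of bicuculline (SD, n = 3) and was called in none of the 4.

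Of the opioid receptors, Oprd1, Oprl1 and Oprk1 fell and Oprm1 turned with time. Of 4 genes, 1 was called higher and 2 lower at 1 h in DMSO, 0 and 3 at 4 h, and under MM401 1 and 3 at 1 h and 0 and 4 at 4 h; with plain library totals these were 1 and 3, 0 and 3, 0 and 3, and 0 and 4. The shares of all genes called lower were 24.5%, 25.5%, 21.8% and 21.7%. Oprd1, the delta receptor (chr4:132110725-132144486), was at 6.01, 6.22 and 6.51 CPM in DMSO water, 3.73, 4.16 and 4.06 CPM after 1 h of bicuculline and 1.72, 1.58 and 1.83 CPM after 4 h. With MM401, Oprd1 was at 6.02, 7.05 and 6.42 CPM in water at 1 h, 3.97, 4.22 and 3.02 CPM in bicuculline at 1 h, 6.29 and 6.09 CPM in water at 4 h and 1.84, 1.57 and 1.76 CPM in bicuculline at 4 h. As with Drd2, the water, 1 h and 4 h libraries of each pretreatment did not overlap, and the changes were -0.65, -1.87, -0.80 and -1.84 (SE 0.11 to 0.13), a 3.65-fold fall at 4 h in DMSO (adjusted p 4.80e-11, edgeR).

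Oprl1, the nociceptin receptor (chr2:181715015-181720985), was at 5.69, 6.86 and 6.64 CPM in DMSO water, 3.55, 3.13 and 2.64 CPM after 1 h of bicuculline and 2.95, 2.56 and 2.79 CPM after 4 h. With MM401, Oprl1 was at 5.06, 5.71 and 5.39 CPM in water at 1 h, 3.51, 2.87 and 2.51 CPM in bicuculline at 1 h, 6.92 and 6.57 CPM in water at 4 h and 4.17, 3.52 and 3.17 CPM in bicuculline at 4 h. Every bicuculline library lay below every water library, and the changes were -1.04, -1.21, -0.87 and -0.90 (SE 0.13 to 0.14). Oprk1, the kappa receptor, fell at 4 h in DMSO and at both times under MM401 (-0.33, -0.76, -0.74 and -0.67, the first not called). Oprm1, the mu receptor, was named for its change of direction after its values were seen. It was at 16.9, 16.6 and 16.8 CPM in DMSO water, 25.4, 23.3 and 27.3 CPM after 1 h of bicuculline and 18.7, 17.05 and 18.5 CPM after 4 h. With MM401, Oprm1 was at 17.6, 17.6 and 17.9 CPM in water at 1 h, 24.8, 23.5 and 22.6 CPM in bicuculline at 1 h, 18.8 and 21.5 CPM in water at 4 h and 16.02, 17.1 and 17.4 CPM in bicuculline at 4 h. It rose at 1 h under both pretreatments, by 0.59 (SE 0.07) and 0.42 (SE 0.07), and at 4 h was at 0.11 (SE 0.07) in DMSO, not called, and was called lower under MM401, at -0.26 (SE 0.08). The overlapping opposite-strand gene Ipcef1, at 28.4 CPM over all libraries, was at -0.18 at 1 h and fell by 0.45 at 4 h under MM401, and its part in the counts of Oprm1 was not tested.

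Genes for the opioid peptides were called higher in the same libraries. Of 4 precursor genes, 3 were called higher in each comparison except MM401 at 1 h, where all 4 were, and 0 were lower, with plain library totals as well; of all genes 18.1% to 23.7% were called higher. Penk, the enkephalin precursor whose peptides act at delta and mu receptors, went from 17.99 ± 3.89 CPM in DMSO water to 89.3 ± 5.55 at 1 h and 62.3 ± 2.87 at 4 h (SD, n = 3), with changes of 2.31, 1.78, 2.37 and 2.15. Pdyn, the dynorphin precursor, which feeds kappa receptors, changed by 1.52, 1.91, 1.24 and 1.64, and Pomc, the precursor of beta-endorphin, was called once, at 1 h under MM401 (1.22, SE 0.35).

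Grouped by coupling, and beside all-gene shares of 44.6%, 49.2%, 39.9% and 44.6% called, the 10 Gq-coupled genes were called 4 higher and 1 lower at 1 h in DMSO, 6 and 2 at 4 h, and under MM401 7 and 2 at 1 h and 5 and 1 at 4 h. The 19 tested Gi/o-coupled genes were called 7 higher and 6 lower, 5 and 8, 5 and 8, and 3 and 7 in the same order. The 8 tested Gs-coupled genes were called 1 and 3, 2 and 2, 1 and 2, and 3 and 4. On the TMM scale the median log2 fold change was 0.17, 0.41, 0.34 and 0.32 over the Gq-coupled genes, -0.04, -0.17, -0.13 and -0.35 over the Gi/o-coupled genes and -0.09, -0.10, -0.05 and -0.06 over the Gs-coupled genes. With plain library totals the Gq-coupled genes were called 2 higher and 2 lower, 4 and 2, 3 and 3, and 5 and 2, with medians of -0.01, 0.14, 0.13 and 0.24. The medians were then -0.22, -0.45, -0.35 and -0.42 over the Gi/o-coupled genes and -0.28, -0.38, -0.27 and -0.13 over the Gs-coupled genes. The Gi/o-coupled genes were then called 4 and 7, 3 and 9, 4 and 9, and 3 and 7, and the Gs-coupled genes 1 and 4, 1 and 4, 1 and 4, and 2 and 4. No difference between the classes was tested.

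The genes of the signalling chain below the receptors were counted from lists of general knowledge, beside all-gene shares of 44.6%, 49.2%, 39.9% and 44.6% called in the 4 comparisons. Of 11 cAMP phosphodiesterases, which break down cAMP, 9 were called higher and 1 lower in 3 comparisons and 6 and 1 at 4 h under MM401; with plain library totals these were 8 and 2, 8 and 1, 4 and 1, and 6 and 1. Pde1c changed by 0.63, 1.47, 0.33 and 0.97, Pde7b by 0.44, 1.15, 0.62 and 0.83 and Pde8a by 0.97 at 4 h in DMSO. Of 8 tested adenylyl cyclases, which make cAMP, 2 were called higher and 0 lower at 1 h in DMSO, 1 and 4 at 4 h, 1 and 1 at 1 h under MM401, and 1 and 5 at 4 h; with plain library totals these were 1 and 4, 1 and 6, 0 and 5, and 1 and 5. Adcy8, which is driven by calcium, rose in all 4 (0.59, 0.87, 0.34 and 0.40), while Adcy5 and Adcy3 fell at 4 h, by 0.34 and 0.40 in DMSO and by 0.67 and 0.63 under MM401.

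Of 10 G protein alpha subunits 5 were called higher and 2 lower at 1 h in DMSO, 3 and 1 at 4 h, 5 and 2 at 1 h under MM401 and 1 and 1 at 4 h. By plain library totals these counts were 2 and 4, 1 and 5, 1 and 2, and 1 and 1. Gna14, of the Gq family, changed by 1.28, 0.26, 0.54 and 0.23, neither 4 h value called, Gnai1, an inhibitory subunit, by 0.75 at 1 h under MM401, and Gna11 fell by 0.64 at 1 h in DMSO. Of 7 tested arrestins and receptor kinases, which switch receptors off, 1 was called higher in each comparison, Grk5 (0.20, 0.91, 0.59 and 0.74), and 2, 3, 0 and 3 lower (0, 1, 1 and 1 higher and 5, 6, 5 and 3 lower with plain library totals). Among these, Grk6 fell at 4 h in DMSO by 0.59 and Grk4 at 4 h under MM401 by 0.38. Of 4 phospholipase C beta genes 1, 2, 2 and 0 were called higher (1, 1, 1 and 0 with plain library totals) and 0 lower; Plcb1, which acts below Gq, changed by 0.40, 0.69, 0.39 and 0.24, and Plcb4 by 0.29 at 1 h under MM401.

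Of 17 tested genes for making, carrying or breaking down the transmitters, 4 were called higher and 3 lower at 1 h in DMSO, 4 and 1 at 4 h, 4 and 3 at 1 h under MM401 and 3 and 1 at 4 h. These counts were below the shares of all genes called, apart from the 7 of 17 at 1 h under MM401, which lay near its 39.9%. By plain library totals they were 4 and 3, 3 and 5, 2 and 3, and 2 and 1. Th, the rate-limiting enzyme of dopamine and noradrenaline synthesis, had 0.473 ± 0.0174 CPM in DMSO water and 1.53 ± 0.165 CPM at 1 h of bicuculline (SD, n = 3), a change of 1.69 (SE 0.20). Slc18a2, the vesicular monoamine transporter, and Tph2, the neuronal enzyme of serotonin synthesis, rose by 1.48 and 1.42 at 4 h in DMSO.

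Markers of other cell types were counted in the same way, in the order of the 4 comparisons. Of all genes 20%, 23.7%, 18.1% and 23% were called higher and 24.5%, 25.5%, 21.8% and 21.7% lower. Of the 7 glutamatergic neuron markers 4, 4, 5 and 4 were called higher and 2, 1, 2 and 0 lower (3, 4, 4 and 4 higher and 2, 1, 2 and 0 lower with plain library totals). Their sum was 956 to 1061 CPM at 4 h in DMSO against 497 to 632 in water. Emx1 fell by 1.97 at 1 h under MM401, while Tbr1 rose by 1.61 at 4 h in DMSO and Fezf2 by 1.56 at 4 h under MM401. Of the 8 interneuron markers 4, 3, 6 and 3 were called higher and 0 lower (3, 2, 4 and 3 higher and 1, 2, 0 and 0 lower with plain library totals), with a sum of 1944 to 2133 CPM at 4 h in DMSO against 1290 to 1648; Gad2 rose by 1.12 there and Gad1 and Vip by 1.03 and 1.09 at 1 h under MM401. Of the 7 astrocyte markers 2, 0, 4 and 3 were called higher and 1, 0, 0 and 0 lower. At 1 h in DMSO Aldh1l1 rose by 0.99 and Slc1a3 by 0.59, and the summed astrocyte level under MM401 was 1578 to 1650 CPM in bicuculline at 1 h against 1078 to 1341 in water, without overlap. The astrocyte counts with plain library totals were 2, 0, 0 and 2 higher and 1, 1, 0 and 0 lower. Oligodendrocyte lineage markers were called 2, 3, 2 and 2 higher of 7 and 0 lower, which became 1, 0, 0 and 2 higher and 2, 1, 0 and 0 lower with plain library totals. Vascular markers were called 0, 1, 1 and 1 higher of 5. Microglial markers were called 0, 1, 0 and 3 higher of 5, monoaminergic markers 3, 3, 1 and 1 of 6 and cholinergic markers 0, 0, 1 and 0 of 2. The last 4 lists had no lower call on the TMM scale, and with plain library totals 1 microglial marker was called lower, at 1 h in DMSO. Their part in the receptor values was not tested.

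Between 1 h and 4 h of bicuculline, 11 receptor genes changed in DMSO, 6 higher and 5 lower, where 34.2% of all genes did (19.1% higher, 15.2% lower). Under MM401 10 changed, 5 in each direction, against 33.6% of all genes (17.5% higher, 16% lower). In DMSO the higher were Adra1a, Chrm2, Chrm3, Chrm5, Hrh1 and Htr7 and the lower Adrb1, Drd2, Htr5a, Oprd1 and Oprm1. Under MM401 the higher were Adra1a, Adrb3, Chrm2, Chrm5 and Htr2b and the lower Adrb1, Drd2, Htr4, Oprd1 and Oprm1. With plain library totals the splits were 4 higher and 7 lower, and 8 and 4. Drd2 fell further by 1.36 and 1.46 on the log2 scale and Oprd1 by 1.22 and 1.11, while Chrm5 rose further by 1.05 and 1.07 and Chrm2 by 0.90 and 0.60. Adrb1 came down again, by 0.58 and 0.32, as did Oprm1, by 0.48 and 0.49. In water under MM401, 0 of 39 receptor genes differed between 4 h and 1 h (edgeR, 8 at an unadjusted p under 0.05; DESeq2 also 0), where 0.867% of all genes did.

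The change of the MM401 response with time, each response against its own water, was tested directly after these turns had been seen. It called 6 receptor genes (10 at an unadjusted p under 0.05) and 12.9% of all genes. The 4 h response was lower than the 1 h response for Drd2 (-1.48, SE 0.12), Oprd1 (-1.04, SE 0.18), Htr4 (-0.73, SE 0.15), Oprm1 (-0.67, SE 0.10) and Htr2c (-0.46, SE 0.15). Adrb1 did not pass here (-0.28, SE 0.17, adjusted p 0.314, edgeR). Htr4 was at 30.3, 23.2 and 21.6 CPM in DMSO water, 23.8, 26.1 and 28.4 CPM after 1 h of bicuculline and 22.1, 22.7 and 22.8 CPM after 4 h. With MM401, Htr4 was at 31.7, 28.1 and 27.7 CPM in water at 1 h, 30.5, 29.8 and 26.9 CPM in bicuculline at 1 h, 32.9 and 30.2 CPM in water at 4 h and 19.8, 19.6 and 17.6 CPM in bicuculline at 4 h. The 3 libraries of MM401 with bicuculline at 4 h were the lowest of all 20.

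**Figure D4:**
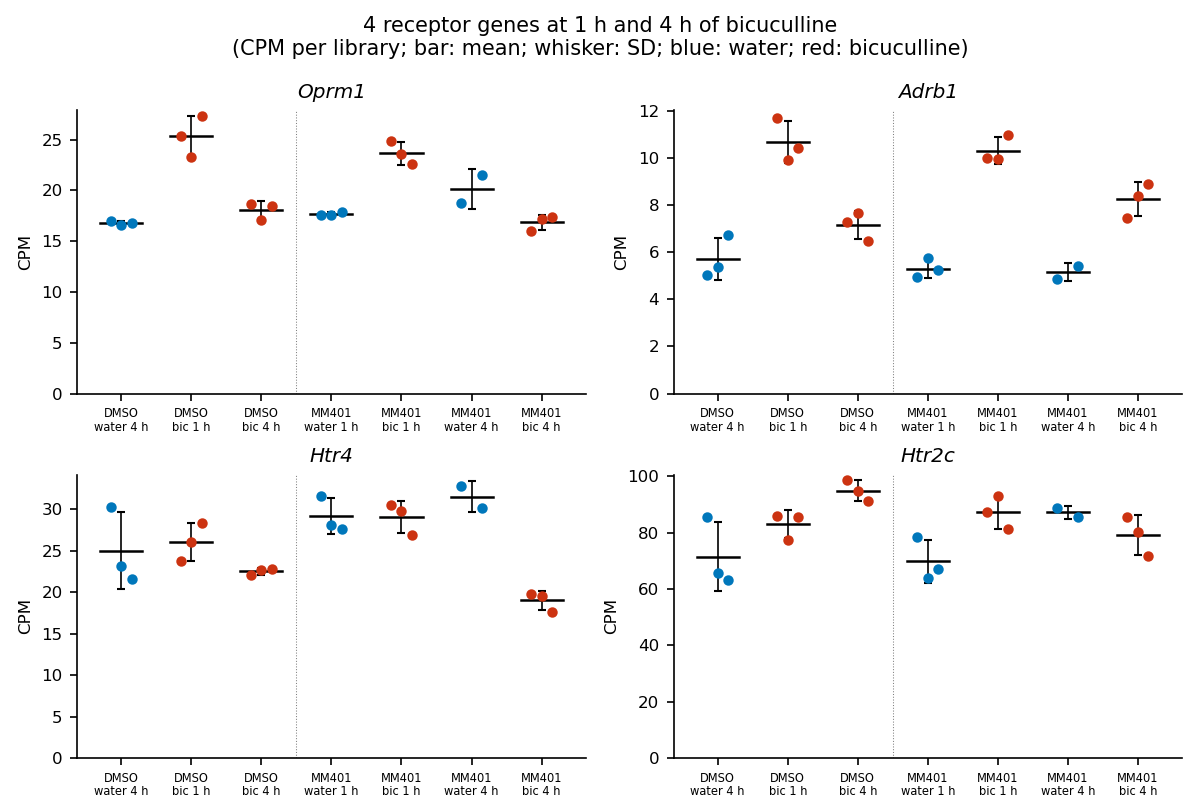
CPM of Oprm1, Adrb1, Htr4 and Htr2c in each of 20 libraries by group (points; blue, water; red, bicuculline), with the mean (bar) and SD (whisker). Oprm1 and Adrb1 are highest at 1 h of bicuculline under both pretreatments, and Htr4 is lowest at 4 h of bicuculline under MM401, at 19.01 CPM.

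MM401 itself was associated with no call among the receptor genes. Against DMSO, 0 of 39 were called in water at 4 h (edgeR, 14 at an unadjusted p under 0.05; DESeq2 also 0), where 0.0826% of all genes were. In bicuculline 0 were called at 1 h (1 unadjusted; DESeq2 0), against 0.00590% of all genes, and 0 at 4 h (7 unadjusted; DESeq2 0), against 0% of all genes. Plain library totals moved the median of all genes by 0.11 in this last comparison. The interaction at 4 h, the response under MM401 minus that in DMSO, called 0 receptor genes (14 unadjusted) and 0% of all genes, whose median moved by 0.20 with plain library totals. DESeq2 called 3 in that interaction, Adra1a (-0.35), Htr2c (-0.58) and Chrm2 (-0.58), and gave no adjusted p for 35 of the 39. In water at 4 h the receptor genes with the smallest p-values, apart from the sparse Hrh4, were Oprm1 at 0.26 (SE 0.08), adjusted p 0.173, and Adra2a at -0.54 (SE 0.17), adjusted p 0.195 (edgeR).

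A single library decided the counts in water and in the interaction, while those in bicuculline stayed at 0 at both times in each of 6 fits without 1 library. Once DMSO water replicate 1 was dropped, the MM401 comparison in water called 8 receptor genes and 7.46% of all genes. Higher under MM401 were 7: Htr4 (0.49), Htr2c (0.44), Chrm2 (0.51), Htr2a (0.56), Htr1f (0.46), Htr7 (0.42) and Hrh4, whose 2 remaining DMSO water libraries held too few counts for a fold. Adra2a was lower (-0.62). The interaction then called 13 receptor genes and 9.09% of all genes: these 8, each with the opposite sign, and Oprm1 (-0.37), Chrm3 (-0.59), Drd1 (0.55), Adra1a (-0.36) and Chrm1 (0.37). The water group is shared by both comparisons, so their signs are tied. In the left-out library 62.2% of counts lay in the 2350 genes of at least 100 kb, against 58.0% and 57.0% in replicates 2 and 3 and 61.4% and 61.3% in the MM401 water libraries at 4 h. With a correction for gene length in the same fit, 6 receptor genes and 4.63% of all genes were called in water (Htr2a, Htr1f, Hrh4, Htr4, Chrm2, Htr2c) and 4 and 1.77% in the interaction (Htr1f, Htr4, Chrm2, Htr2c).

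**Figure D5:**
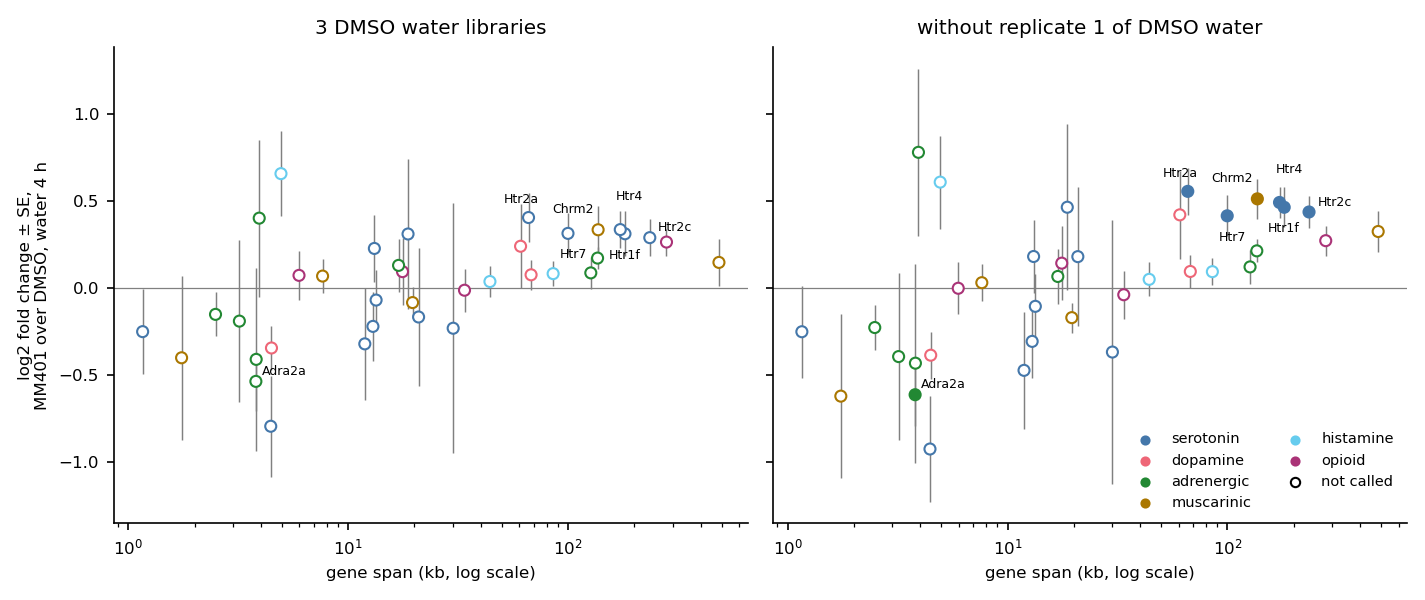
Log2 fold change of MM401 over DMSO in water at 4 h with its SE (whiskers) against gene span in kb (log axis) for the tested receptor genes reported here (Hrh4 is not drawn), with all 3 DMSO water libraries (left) and without replicate 1 (right); filled points were called (edgeR). With the 3 libraries 0 genes are called, and without replicate 1 the longer Htr2a, Htr7, Chrm2, Htr4, Htr1f and Htr2c and the short Adra2a are.

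Calls in the bicuculline comparisons also depended in part on single libraries. Each lost call is given with its log2 fold change in the fit without the library named. Where that left MM401 water at 4 h with 1 library, it was assumed to vary like the other groups. Adra1a between 1 h and 4 h under MM401 was not called without MM401 bicuculline at 1 h replicate 3 (0.15). Adra1b at 4 h under MM401 was not called without MM401 water at 4 h replicate 1 (0.27). Adra1d at 4 h in DMSO was not called without DMSO bicuculline at 4 h replicate 2 (-0.35) or 3 (-0.37) or DMSO water replicate 3 (-0.36). Adra2a at 4 h in DMSO was not called without DMSO bicuculline at 4 h replicate 1 (0.36) or 2 (0.32) or DMSO water replicate 1 (0.30) or 2 (0.35). Adra2c at 1 h under MM401 was not called without MM401 bicuculline at 1 h replicate 1 (-0.77) or 2 (-1.02) or MM401 water at 1 h replicate 1 (-1.14) or 3 (-0.94). Adrb1 at 4 h in DMSO was not called without DMSO bicuculline at 4 h replicate 1 (0.30) or 2 (0.27) or DMSO water replicate 1 (0.24) or 2 (0.26). Adrb1 between 1 h and 4 h under MM401 was not called without MM401 bicuculline at 1 h replicate 3 (-0.30) or MM401 bicuculline at 4 h replicate 1 (-0.26). Adrb3 at 1 h in DMSO was not called without DMSO bicuculline at 1 h replicate 1 (-1.16) or 2 (-1.02) or DMSO water replicate 1 (-1.31) or 3 (-1.01). Adrb3 between 1 h and 4 h under MM401 was not called without MM401 bicuculline at 1 h replicate 3 (1.64). Chrm3 at 1 h under MM401 was not called without MM401 bicuculline at 1 h replicate 1 (0.30) or 2 (0.29) or MM401 water at 1 h replicate 2 (0.32) or 3 (0.33). Chrm5 at 1 h in DMSO was not called without DMSO bicuculline at 1 h replicate 1 (0.64) or DMSO water replicate 1 (0.76) or 3 (0.99). Drd1 at 4 h under MM401 was not called without MM401 bicuculline at 4 h replicate 2 (0.34) or MM401 water at 4 h replicate 1 (0.39) or 2 (0.38). Drd3 at 1 h in DMSO was not called without DMSO bicuculline at 1 h replicate 3 (0.41) or DMSO water replicate 2 (0.62) or 3 (0.42). Hrh3 at 1 h in DMSO was not called without DMSO bicuculline at 1 h replicate 3 (-0.42) or DMSO water replicate 3 (-0.53). Htr1b at 4 h under MM401 was not called without MM401 bicuculline at 4 h replicate 1 (0.65) or MM401 water at 4 h replicate 1 (0.41). Htr1d at 1 h under MM401 was not called without MM401 bicuculline at 1 h replicate 3 (-0.94). Htr1f at 1 h in DMSO was not called without DMSO bicuculline at 1 h replicate 3 (0.31) or DMSO water replicate 2 (0.35) or 3 (0.26). Htr1f at 4 h in DMSO was not called without DMSO water replicate 2 (0.33) or 3 (0.24). Htr2b at 1 h under MM401 was not called without MM401 bicuculline at 1 h replicate 1 (0.47), 2 (0.52) or 3 (0.41) or MM401 water at 1 h replicate 1 (0.51) or 2 (0.37). Htr2b at 4 h under MM401 was not called without MM401 water at 4 h replicate 2 (0.54). Htr2b between 1 h and 4 h under MM401 was not called without MM401 bicuculline at 1 h replicate 1 (0.51) or 2 (0.46) or MM401 bicuculline at 4 h replicate 3 (0.38). Htr2c at 1 h under MM401 was not called without MM401 bicuculline at 1 h replicate 2 (0.27) or MM401 water at 1 h replicate 2 (0.26) or 3 (0.30). Htr3a at 1 h in DMSO was not called without DMSO bicuculline at 1 h replicate 2 (-0.82) or DMSO water replicate 2 (-0.81) or 3 (-0.83). Htr3a at 1 h under MM401 was not called without MM401 bicuculline at 1 h replicate 2 (-0.81) or MM401 water at 1 h replicate 1 (-0.84). Htr5a between 1 h and 4 h in DMSO was not called without DMSO bicuculline at 1 h replicate 1 (-0.19) or DMSO bicuculline at 4 h replicate 1 (-0.36) or 3 (-0.41). Htr5b at 1 h under MM401 was not called without MM401 bicuculline at 1 h replicate 1 (-1.10) or 3 (-1.06) or MM401 water at 1 h replicate 1 (-1.07). Htr7 between 1 h and 4 h in DMSO was not called without DMSO bicuculline at 1 h replicate 1 (0.28) or 2 (0.29) or DMSO bicuculline at 4 h replicate 2 (0.30) or 3 (0.32). Htr7 at 4 h under MM401 was not called without MM401 bicuculline at 4 h replicate 3 (-0.33) or MM401 water at 4 h replicate 1 (-0.39) or 2 (-0.33). Oprk1 at 4 h under MM401 was not called without MM401 water at 4 h replicate 1 (-0.62). Oprm1 at 4 h under MM401 was not called without MM401 water at 4 h replicate 2 (-0.15).

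Other settings, apart from the fit of all 21 libraries, ended calls as follows, with the log2 fold change each gave. Scaling by plain library totals ended the calls of Adra1b (DMSO 1 h 0.22, DMSO 4 h 0.13, MM401 1 h 0.06 and MM401 4 h 0.24), Adra2a (DMSO 1 h 0.26 and DMSO 4 h 0.09), Adrb1 (DMSO 4 h 0.04 and MM401 4 h over 1 h -0.25), Chrm3 (MM401 1 h 0.14), Chrm5 (DMSO 1 h 0.79), Drd1 (MM401 4 h 0.31), Drd3 (DMSO 1 h 0.40), Hrh1 (DMSO 4 h over 1 h 0.15), Htr1f (DMSO 1 h 0.17 and DMSO 4 h 0.11), Htr2b (MM401 1 h 0.26), Htr2c (DMSO 4 h 0.15 and MM401 1 h 0.11), Htr7 (DMSO 4 h over 1 h 0.24) and Oprm1 (MM401 1 h 0.20). A correction for gene length ended those of Adra1b (MM401 1 h 0.13), Adrb3 (DMSO 1 h -1.16), Chrm3 (MM401 1 h 0.09), Drd1 (MM401 4 h 0.29), Drd3 (DMSO 1 h 0.47), Htr1b (MM401 4 h 0.42), Htr1f (DMSO 1 h 0.14 and DMSO 4 h 0.16) and Htr2c (MM401 1 h 0.11). Fits restricted to the groups compared ended those of Adra2a (DMSO 4 h 0.35), Adra2c (MM401 1 h -1.13), Adrb1 (DMSO 4 h 0.30), Adrb3 (DMSO 1 h -1.26), Chrm5 (DMSO 1 h 1.01), Drd3 (DMSO 1 h 0.61), Hrh3 (DMSO 1 h -0.69) and Htr5a (DMSO 4 h over 1 h -0.48). Without the filter on low counts the calls of Adrb3 (DMSO 1 h -1.28), Htr2b (MM401 1 h 0.46) and Htr5a (DMSO 4 h over 1 h -0.45) were lost. DESeq2 did not call Adrb3 (DMSO 1 h -1.24) and Htr5b (MM401 1 h -1.20).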

How the data were processed

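Nascent RNA of mouse cortical cultures was measured by BrU-seq. The authors deposited raw counts per whole gene span (mm10). The submitters' processing notes name Bowtie2, UMI-tools, featureCounts, deepTools and DESeq2, with no versions or strand setting, so their roles and the use of strand are not given in the sources used here. Symbols and spans are those of the table.

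The 20 libraries entered 1 fit in edgeR 4.0.16 (R 4.3.3; limma 3.58.1): TMM scaling, a filter on low counts (minimum count 10, minimum total 15), the robust quasi-likelihood test, Benjamini-Hochberg adjustment over 16959 genes and a threshold of 0.05. The pipeline was tested on simulated data in which few genes changed, so that test does not check the scaling where many genes change. CPM values are counts per 1000000 of the TMM-scaled library total. The common biological coefficient of variation was 8.77%. Same-group libraries differed beyond sampling noise in all 19 pairs (chi-square per degree of freedom 6.17 to 78.5). Replicates are labelled biological, without naming the dissections, so p-values measure the spread between these libraries. Intervals cover counting error only.

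Receptor genes, gene lists and tests were chosen with earlier results of these data known. Values in every library are given for genes called in at least 2 of the 4 bicuculline comparisons with an absolute log2 fold change of at least 1 in any of them, except 1 gene that is counted in totals but not reported here, and up to 3 called genes with the largest change are named per list. Oprm1, Adrb1, Htr4 and Htr2c were added after their values were seen. Alternatives were DESeq2 1.42.0, plain library totals, no filter, a gene-length correction, fits of only the groups compared, all 21 libraries, the replicate block and each library left out. RefSeq windows served for motifs.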

Additional observations from a re-analysis of the deposited data

Results flagged for a closer look

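The 4 h response of Oprm1 was 0.11 on the log2 scale in DMSO and -0.26 under MM401, with every bicuculline library on opposite sides of its own water group. That of Htr2c was 0.41 in DMSO and -0.14 under MM401, likewise. The test of the difference itself, edgeR's interaction, gave adjusted p-values of 0.229 and 0.224, so neither difference passed with the 20 libraries. DESeq2 called that of Htr2c (-0.58, adjusted p 0.0313). Without DMSO water replicate 1 edgeR called both, Oprm1 at -0.37 and Htr2c at -0.70. With the length correction added to that fit, Htr2c was called (-0.43) and Oprm1 was not (-0.07). Under MM401 the response of Oprm1 went from 0.42 at 1 h to -0.26 at 4 h and that of Htr2c from 0.32 to -0.14, and here the interaction with time passed (adjusted p 0.000136 and 0.0412, edgeR). The 4 h value of Oprm1 was -0.15 and not called without MM401 water replicate 2. Ipcef1, which overlaps Oprm1 on the opposite strand, was at -0.18 and -0.45 at these times under MM401.

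The library of MM401 with water at 4 h that was left out held at least 1 count for 21 of the 41 receptor genes. In CPM without TMM scaling, 8 of them lay above the highest other water library by the lower bound of their 95% exact Poisson interval. This is 20.5% of the 39 tested receptor genes, near the 17.5% of all tested genes that did so. Htr2c was at 272 CPM against 92.4, and Chrm2 was at 101 against 66.6. Htr1f was at 69.5 against 27.9, Adra1b at 34.7 against 13.5 and Oprd1 at 22.1 against 7.76. The genes with few counts were Htr1d at 15.8 against 1.13, Htr3a at 6.31 against 0.593 and Htr5b at 6.31 against 0.322. In the other direction 1 gene, Chrm1, at 6.31 CPM with an upper bound of 22.8, lay below the lowest other water library, at 49.8, as did 11.4% of all tested genes by the same measure.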

How the results depend on the processing

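Of the 119 calls of single receptor genes, 80 kept their side of the threshold in every setting and every fit without 1 library, and 0 changed direction. Keeping all 21 libraries ended 24 of them, against 20 for plain library totals, and these 24 are not listed by gene. Chrm1 and Htr1d were then no longer lower in all 4 bicuculline comparisons, and Adra1b, Adra2a and Adrb1 no longer higher in all 4. Leaving out 1 library gave counts of called receptor genes between 18 and 24 for bicuculline in DMSO at 1 h, 23 and 25 at 4 h, 21 and 24 under MM401 at 1 h and 18 and 23 at 4 h. Between 1 h and 4 h of bicuculline the range was 9 to 13 in DMSO and 8 to 12 under MM401. For MM401 against DMSO it was 0 to 8 in water and 0 to 13 in the interaction, the high ends without DMSO water replicate 1, and 0 elsewhere. With the length correction added to that fit, a setting chosen after seeing the data, these were 6 and 4. In MM401 water, 4 h against 1 h gave 2 calls with the length correction (Htr7 and Htr2c) and 2 in the fit of only the groups compared (Htr2a and Htr7), and DESeq2 gave 3 in the interaction; the cause was not tested.

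With the replicate block the counts were 24, 26, 26 and 26 in the 4 bicuculline comparisons, 13 and 12 between times and 0 in the other 5. Same-numbered libraries had correlations of -0.229 to 0.241, all above 0.1 in 1 of 10 pairs of groups, so the numbers were not taken as pairs. Counts were low for Hrh4, Adrb3, Adra2b, Adra2c, Htr5b, Htr3b, Drd4 and Drd5.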
